A study of Saccharomyces cerevisiae with 12 samples.

Results

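Transcripts of the RNA polymerase subunit genes were followed in budding yeast, Saccharomyces cerevisiae, in a wild type and in strains lacking SWP82, SNF2 or SNF5, each a subunit of the SWI/SNF chromatin remodelling complex. The genes were taken by name, as rows whose standard name is RPA, RPB, RPC or RPO followed by a number, which gave 31 of the 5935 genes in the deposited table. By the textbook assignment of their products, 7 encode subunits of RNA polymerase I (Pol I) only, 7 of Pol II only and 9 of Pol III only. A further 2 products are shared by Pol I and Pol III, 5 are shared by all 3 nuclear enzymes, and 1 gene, RPO41, encodes the mitochondrial RNA polymerase. All 31 genes passed the filter on low values, and none is in the authors' shorter list of 506 genes.

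Pol I transcribes the ribosomal DNA repeat, Pol II transcribes messenger RNA genes, and Pol III transcribes transfer RNA, 5S ribosomal RNA and other short RNAs. Each enzyme has a pair of large subunits that form the active centre, a stalk, an assembly heterodimer and small subunits, some of them common to all enzymes. In yeast, genes for making ribosomes, among them many Pol I and Pol III subunit genes, often carry the PAC and RRPE promoter elements, which are bound by the repressors Dot6 and Tod6 (PAC) and Stb3 (RRPE). Snf2 is the ATPase of SWI/SNF, Snf5 is a core subunit, and Swp82 is a peripheral one.

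All strains were BY4741, a haploid laboratory strain of mating type a with several auxotrophic alleles, deletions of HIS3 and LEU2 sequence among them. Per the labels, the wild type carried a FLAG tag with LEU2 at SNF2, and each deletion strain carried a kanMX4 deletion and the same tag at SNF6, so the position of the tag cannot be told apart from a deletion in any comparison with the wild type. There were 3 libraries per strain, described as independent biological triplicates, from cultures grown at 30 °C to an OD600 of 0.75 to 1.0. Whether a strain was 1 clone or several is not stated there.

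Between 9012746 and 12875057 reads per library fell on genes. SNF5, SNF2 and SWP82 had at most 0.183, 0.742 and 0 scaled CPM in their own deletion strains. LEU2 had no reads in the snf2 and swp82 deletions, against the label, so in each comparison of these strains with the other 2 strains LEU2 status differs as well. A list of 7 genes of mating type a, none of them at 0, summed to 3670 to 4000 scaled CPM in the wild type, 3996 to 4913 in the swp82, 2167 to 2321 in the snf2 and 1972 to 2039 in the snf5 deletion; 4 genes of the other mating type summed to 77.3 to 95.2 in all libraries. Levels are scaled CPM, that is, CPM divided by a library's TMM factor, and are given as mean ± SD with n = 3 libraries. In each comparison the log2 fold change is given ± SE on the log2(scaled CPM + 1) scale. A gene was called at an adjusted p under 0.05 in limma, with Benjamini-Hochberg adjustment over all 5820 genes tested. In extracts of whole cultures, fewer transcribing cells and less RNA per cell cannot be told apart.

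The promoter windows differed between the polymerases. In the planned window, from 250 bases before to 50 after the coding start, the PAC core GATGAG, read on both strands, was found in 16 of the 31 genes and in 20.3% of all 6020 protein-coding genes. Restricted after seeing the data to the 250 bases before the start, it was found in 15, with 1 Pol II gene dropping out. It lay there in 6 of 7 Pol I genes, 7 of 9 Pol III genes and both genes shared by Pol I and III. In this narrower window it was found in 0 of 7 Pol II genes, 0 of 5 genes shared by all 3 enzymes and not in RPO41. Over all protein-coding genes, 17.0% had it in the narrower window, which is used for every split that follows. The RRPE core AAAAATTTT, on both strands, was present before the start of 15 of the 31 genes, 6 of them Pol I genes, compared with 6.71% of all protein-coding genes. Stretches of 30 bases before the start were placed to hold at least 1 PAC core and the most PAC and RRPE core bases. This placing favours stretches with both cores. Stretches are shown for the 6 Pol I genes with a PAC core and for 4 Pol III or shared genes. Those of RPO31, RPC82, RPC37, RPC34 and RPC31 are not shown. They hold 1 PAC core each and no RRPE core, so the genes shown lean towards stretches with more cores. Stretches are given because this motif divides the classes whose levels are compared afterwards. They were read from RefSeq assembly R64 (sacCer3), 5′ to 3′ on the gene's own strand, with the PAC core (GATGAG, or CTCATC on the other strand) and the RRPE core in capitals.
RPA190 (chrXV:960792-960821, plus strand): aAAAAATTTTTtttatttcaaatCTCATCt
RPA135 (chrXVI:581285-581314, minus strand): tcttagagaCTCATCTCATCtcttaattat
RPA49 (chrXIV:182728-182757, minus strand): gctgAAAATTTTTtattgcGATGAGctgaa
RPA43 (chrXV:960347-960376, minus strand): tgaaaagattccGATGAGggtgtatgggtg
RPA34 (chrX:140309-140338, plus strand): gaaatgAAAAATTTTatcGATGAGcattga
RPA14 (chrIV:769454-769483, plus strand): gattatagaggtCTCATCggtaaggcagag
RPC53 (chrIV:183093-183122, plus strand): gctatGATGAGATGAGcttcattattgaat
RPC25 (chrXI:176651-176680, minus strand): cgatgCTCATCgcttAAAATTTTTatttga
RPC40 (chrXVI:746901-746930, minus strand): aaaaattattgcGATGAGttgaaagaaaaa
RPC19 (chrXIV:412632-412661, plus strand): atattcacctgcGATGAGctggaaaaaaaa

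In RPA190, RPA49, RPA34 and RPC25 an RRPE core falls inside the same 30 bases as the PAC core. RPA135 and RPC53 each hold 2 overlapping PAC cores. RPA190 also has 2 before its start. The nearer of these, from position -167, overlaps the printed core, runs past the end of the stretch and is not marked. RPA43 and RPA190 are divergent neighbours with 804 bases between their coding starts, so their windows belong to the same intergenic region. A match is a description of the letters only, and binding was not measured.

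Among class medians of the level per kb of coding sequence in the wild type, the subunits common to several enzymes stood highest. The median over the 5 genes shared by all 3 enzymes was 593 ± 27.2 scaled CPM per kb, and over the 2 shared by Pol I and III it was 359 ± 41.2. The Pol II genes followed at 231 ± 7.91, the Pol I genes at 204 ± 25.6 and the Pol III genes at 97.5 ± 10.2, while RPO41 stood at 21.3 ± 0.661. The medians of the Pol II libraries, 222 to 237, and of the Pol I libraries, 175 to 224, overlapped. The highest single gene was RPB8, at 741 ± 45.8 per kb, above 95.1% of the 5625 genes with a coding length. Single genes crossed the order of the classes. RPB11, a Pol II gene, stood at 530 ± 9.25 per kb, above the shared genes RPB10 (434), RPC19 (397), RPB5 (324) and RPC40 (321). In each nuclear enzyme the catalytic subunits were at or near the bottom: RPO31 at 32.7 ± 1.69, RPA190 at 63.4 ± 7.69, RPB2 at 78.8 ± 1.19 and RPO21 at 105 ± 2.76. RPC17, a stalk subunit of Pol III, was as low as these, at 56.3 ± 6.59 per kb. RPA190, RPC82 and RPC17 were next to each other in the order and their SDs overlapped, as did those of RPO26 and RPC10 near the top.

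**Figure D1:**
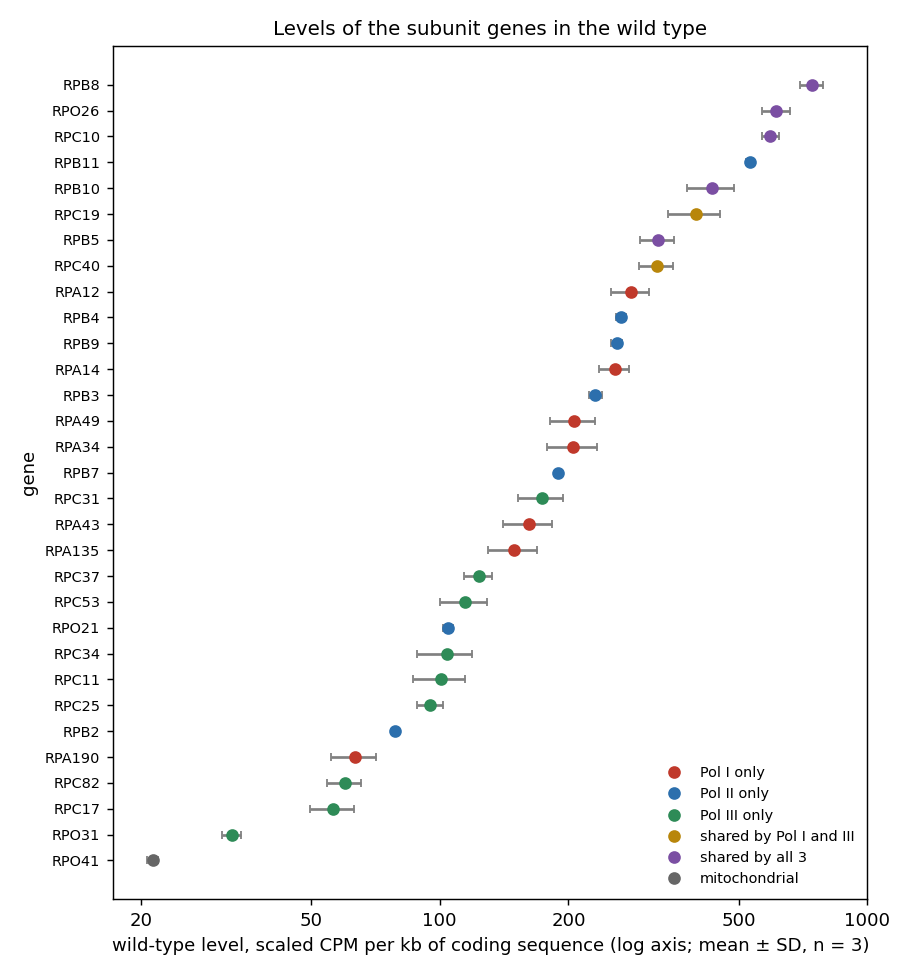
Level of each of the 31 genes in the wild type, in scaled CPM per kb of coding sequence on a log axis, as mean ± SD of 3 libraries and coloured by polymerase. RPO41 is lowest at 21.3 and RPB8 highest at 741, and the genes shared by all 3 enzymes lie at 324 or above.

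Across the 4 strains, the widest differences lay between the swp82 deletion and the other deletions. Against the swp82 deletion, 18 of the 31 genes were lower and 0 higher in the snf2 deletion, and 11 were lower and 1 higher in the snf5 deletion. Over all genes tested, 21.8% were lower and 21.7% higher in the snf2 deletion, and 21.5% lower and 20.4% higher in the snf5 deletion. The median log2 fold change over the 31 genes was -0.35 and -0.32 in these comparisons, where the median of all genes was 0.00 and -0.01. Both comparisons use the same swp82 libraries. Against the wild type the counts were small: 1 gene higher and 1 lower in the snf5 deletion (background 14.8% and 14.5%), 1 higher and 1 lower in the snf2 deletion (13.6% and 14.1%), and 0 and 0 in the swp82 deletion (1.41% and 2.08%). In the last of these, 7 genes had an unadjusted limma p under 0.05, edgeR called 0 and DESeq2 called 1, RPC11. Between the snf5 and snf2 deletions 2 genes were higher in snf5 and 0 lower (5.79% and 6.68%). The F test for any difference among the 4 strains called 7 of the 31 genes, compared with 50.3% of all genes.

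**Figure D2:**
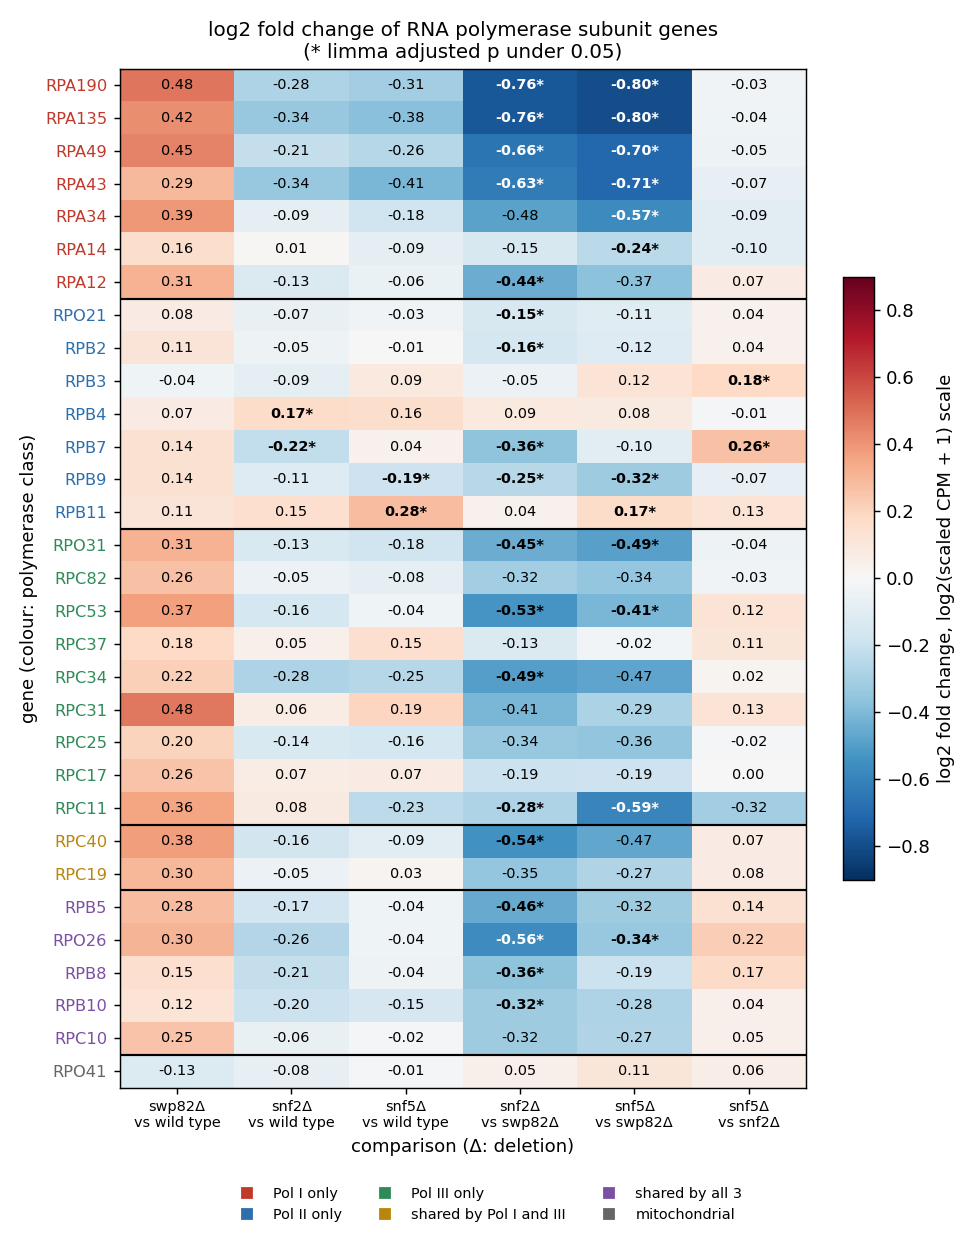
log2 fold change of the 31 genes (rows, names coloured by polymerase) in the 6 comparisons (columns), with an asterisk where the limma adjusted p was under 0.05. The calls gather in the columns of the snf2 and snf5 deletions against the swp82 deletion, with 18 and 12 calls. No gene is called in the swp82 deletion relative to the wild type.

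These counts leaned on single libraries and on the scaling. Without swp82 replicate 2 the lower calls in the snf2 deletion against the swp82 deletion went from 18 to 3 in all. Without swp82 replicate 3, snf2 replicate 1 or snf2 replicate 3 they came to 5, 4 and 5. Without wild-type or snf5 replicate 2, which enter only through the shared spread, there were 12. Over all 5820 genes tested the lower calls moved too, from 1268 to 876, to 943, 920 and 922, and to 1153 and 1173, in the same order. For snf5 against swp82, 12 calls became 3 without either of these swp82 libraries, 2 without snf5 replicate 1 and 3 without snf5 replicate 2. They rose to 19 and 22 without swp82 replicate 1 and snf5 replicate 3. Calls over all genes tested went from 2438 to 1746 and 1922, to 1954 and 1932, and to 2686 and 3033, in the same order. With counts scaled to the library total, which moved the median of all genes by 0.21 and 0.16, the 31 genes gave 4 higher and 2 lower in the snf2 deletion (background 50.5% and 9.91%) and 4 higher and 4 lower in the snf5 deletion (39.2% and 10.3%).

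In 3 of the strains the first replicate was the low library for most of these genes. It was the lowest of its 3 libraries in 29 of the 31 genes in the wild type, 29 in the swp82 deletion, 26 in the snf5 deletion and 17 in the snf2 deletion, where replicate 3 was lowest in 12 and replicate 2 highest in 28, whereas over all genes tested it was lowest in 40.6%, 41.7%, 40.6% and 36.7%. With the first replicates of all strains left out, which was chosen after seeing the data, 24 genes were lower and 0 higher in the snf2 deletion against the swp82 deletion (background 25.5% and 23.2%). For snf5 against swp82, 13 were lower and 0 higher (21.8% and 17.3%). Relative to the wild type, 5 genes of the swp82 deletion were higher and 0 lower (3.8% and 4.73%), namely RPA190, RPA34, RPC53, RPC31 and RPC40. What distinguishes these replicates is not given in the labels.

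Same-numbered libraries deviated together in 2 of the comparisons, so a fit with the replicate number as a block is given beside them. The block was fitted to all 12 libraries. Those of the snf2 deletion were included, although their same-numbered correlation fell to 0.0139 with the wild type and to -0.104 with the snf5 deletion. Correlations between libraries of different number were not examined. For swp82 against the wild type it called 4 genes higher and 0 lower (background 6.77% and 6.68%): RPC31 at 0.48, RPC11 at 0.36, RPC53 at 0.37 and RPO26 at 0.30. For snf5 against swp82 it called 2 higher and 21 lower (23.6% and 27%).

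By their medians, Pol I genes had the widest fold changes of the classes in both comparisons with the swp82 deletion. Against it, 6 of the 7 genes fell in the snf5 deletion, with a median log2 fold change of -0.70, and 5 fell in the snf2 deletion, with a median of -0.63. With total-count scaling these counts were 2 and 0, with medians of -0.54 and -0.41, and 7 and 6 of the 7 fold changes were still below 0. The main fit shares its spread over all strains, and Pol I genes varied most in the snf5 deletion. With only the 2 groups compared, 2 of all 31 genes were called for snf5 against swp82, where the main fit called 12. At most 2 of the 6 Pol I calls in the snf5 deletion can therefore stand in that fit. For snf2 against swp82 such a fit called 22 of the 31 genes, where the main fit called 18. Against the wild type no Pol I gene was called in any deletion; the medians were 0.39 in the swp82, -0.21 in the snf2 and -0.26 in the snf5 deletion.

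RPA190, the largest subunit of Pol I, lies on the plus strand of chromosome XV (960987 to 965981, 1 exon). Its scaled CPM was 274, 349 and 327 in the wild type, 339, 514 and 491 in the swp82 deletion, 239, 289 and 252 in the snf2 deletion, and 171, 259 and 366 in the snf5 deletion. All swp82 libraries lay above all snf2 libraries, while the highest snf5 library lay inside the swp82 range. The fold change was -0.76 ± 0.24 in the snf2 deletion against the swp82 deletion (limma adjusted p = 0.0254) and -0.80 ± 0.24 in the snf5 strain (limma adjusted p = 0.0216). Each call was lost on leaving out any 1 of 4 libraries, swp82 replicates 2 and 3 among them.

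RPA135, the second largest subunit, which with RPA190 forms the active centre, lies on the minus strand of chromosome XVI (577585 to 581196). It had 459, 592 and 567 scaled CPM in the wild type, 562, 825 and 796 in the swp82 deletion, 402, 467 and 403 in the snf2 deletion, and 267, 427 and 612 in the snf5 deletion. The order of the libraries within each strain was that of RPA190. RPA135 fell by 0.76 ± 0.25 in the snf2 deletion against the swp82 deletion (limma adjusted p = 0.0311) and by 0.80 ± 0.25 in the snf5 strain (limma adjusted p = 0.0263), and each call was lost on leaving out any 1 of 4 libraries.

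The other Pol I genes were RPA49 and RPA34, whose products form a heterodimer that aids initiation and elongation, RPA43 and RPA14, which form the stalk, and RPA12, which takes part in RNA cleavage. RPA49 fell in both comparisons, by 0.66 in the snf2 and 0.70 in the snf5 deletion, and RPA43 did so by 0.63 and 0.71. RPA34 fell by 0.57 in the snf5 deletion and had -0.48 in the snf2 deletion, without a call, whereas RPA12 fell by 0.44 in the snf2 deletion and had -0.37 in the snf5 deletion, called with the replicate block only. RPA14 was the flattest gene of the enzyme: its fold change was -0.24 ± 0.09 in the snf5 strain (limma adjusted p = 0.0448) and -0.15 in the snf2 deletion. RPA14 overlaps the neighbouring reading frame YDR157W by 8 bases on the same strand, so reads there cannot be assigned to 1 of them with certainty. Of the 11 Pol I calls in the 2 comparisons, those of RPA34, RPA14, RPA43 (snf2) and RPA12 were each lost on leaving out any 1 of 9 libraries.

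The spread among Pol I genes was itself uneven. Over the 7 genes the median coefficient of variation between libraries was 35.5% in the snf5 deletion, 19.4% in the swp82, 12.1% in the wild type and 8.72% in the snf2 deletion. For the Pol II genes in the snf5 deletion it was 2.67%, below the 9.05% of all genes tested. All 7 Pol I genes and all 9 Pol III genes were lowest in replicate 1 of the snf5 deletion.

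**Figure D3:**
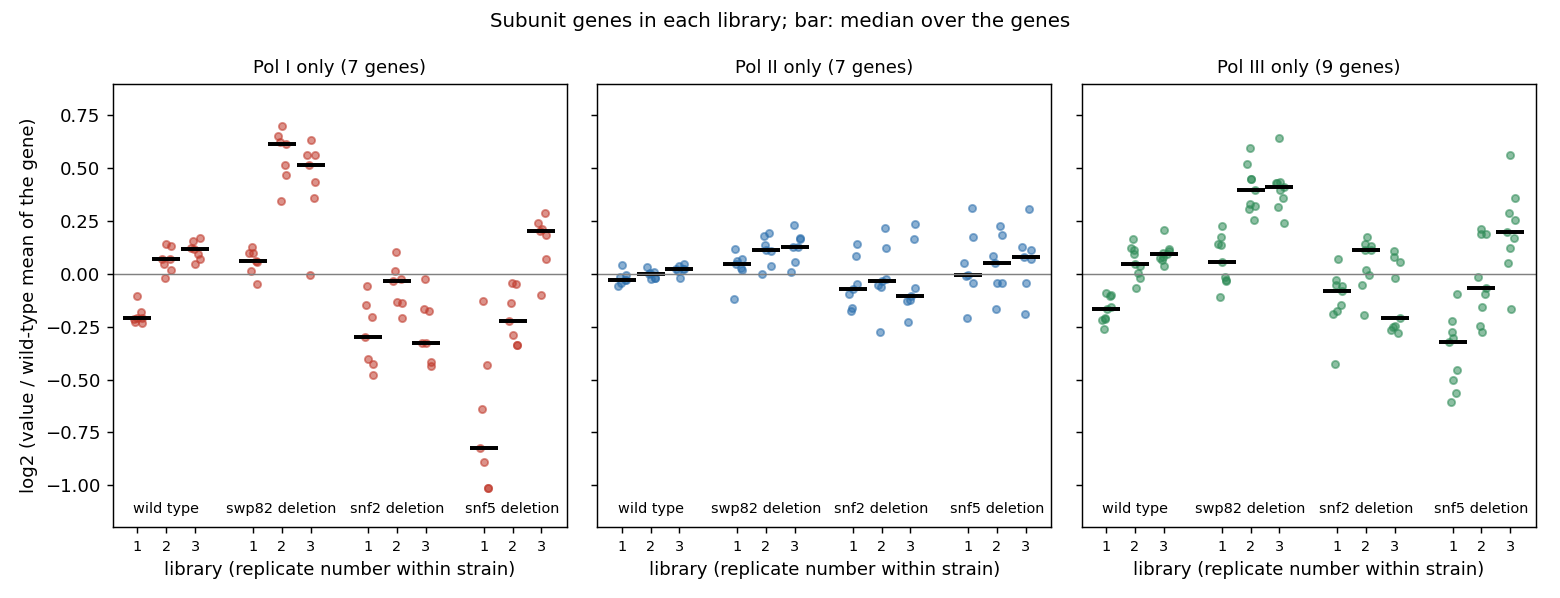
Each gene's level in each library as log2 of its ratio to the wild-type mean of that gene, by polymerase, with a bar at the median over the genes. Pol I genes spread over the snf5 libraries (RPA190 from 171 to 366 scaled CPM), while Pol II genes spread less (RPO21 from 507 to 589 over all 12 libraries).

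Pol II genes moved little, and in both directions. Their median log2 fold change lay between -0.15 and 0.11 in the 6 comparisons. In the snf2 deletion against the swp82 deletion 4 of 7 fell, and in the snf5 deletion 1 fell and 1 rose. Their direction depended on the scaling: with total-count scaling 3 rose and 1 fell in each of these comparisons, and the median for snf5 against swp82 went from -0.10 to 0.07. With the replicate block 2 fell and 2 rose for snf5 against swp82, RPB2 among the former and RPB3 among the latter.

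RPO21, the largest subunit with the repeated C-terminal domain, lies on chromosome IV (205360 to 210561, minus strand). It had 562, 536 and 538 scaled CPM in the wild type, 569, 589 and 567 in the swp82 deletion, 519, 533 and 507 in the snf2 deletion, and 542, 528 and 529.5 in the snf5 deletion. No snf2 library reached a swp82 library. The fold change was -0.15 ± 0.04 (limma adjusted p = 0.0191), and 0.07 with total-count scaling.

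RPB2, the second largest subunit, is on chromosome XV (612997 to 616671, minus strand). It had 288, 286 and 295 scaled CPM in the wild type, 304, 312 and 324 in the swp82 deletion, 281, 285 and 276 in the snf2 deletion, and 281, 281 and 304 in the snf5 deletion. Its fold change in the snf2 deletion against the swp82 deletion was -0.16 ± 0.05 (limma adjusted p = 0.0192), and 0.06 with total-count scaling. For both genes of the catalytic pair the call was lost and the fold change turned sign with total-count scaling.

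RPB7, which with RPB4 forms the stalk of Pol II, is on chromosome IV (1276654 to 1277169, minus strand). It had 96.5, 97.5 and 98.6 scaled CPM in the wild type, 106, 110.5 and 106 in the swp82 deletion, 86.4, 80.5 and 83.3 in the snf2 deletion, and 96.9, 101 and 103 in the snf5 deletion. The snf2 libraries lay below every other library. RPB7 fell by 0.22 ± 0.05 in the snf2 deletion against the wild type (limma adjusted p = 0.00456) and fell by 0.36 ± 0.05 against the swp82 deletion (limma adjusted p = 0.000138), and was 0.26 ± 0.05 higher in the snf5 than in the snf2 deletion (limma adjusted p = 0.00614). These calls stood with any 1 library left out. With total-count scaling the calls against the swp82 and snf5 deletions stood, and the call against the wild type did not (limma adjusted p = 0.169).

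RPB4, its partner in the stalk, went the other way against the wild type: 173, 174 and 183 scaled CPM in the wild type compared with 195, 192 and 208 in the snf2 deletion, a fold change of 0.17 ± 0.06 (limma adjusted p = 0.0463). The groups did not overlap, but the call was lost on leaving out any 1 of 8 libraries. It had 179, 181 and 199 in the swp82 deletion and 199, 201 and 191 in the snf5 deletion. The ends of the stalk pair therefore differed in sign in the snf2 deletion against the wild type, a difference that was not itself tested.

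RPB9, which takes part in start-site choice and fidelity, is on chromosome VII (374459 to 374827, minus strand). It had 92.8, 96.0 and 98.0 scaled CPM in the wild type, 98.7, 105 and 112 in the swp82 deletion, 85.5, 91.6 and 87.6 in the snf2 deletion, and 82.9, 85.1 and 83.9 in the snf5 deletion. Every snf5 library lay below every library of the other strains. RPB9 fell by 0.19 ± 0.06 in the snf5 deletion against the wild type (limma adjusted p = 0.0264, lost on leaving out any 1 of 4 libraries and with total-count scaling) and fell by 0.32 ± 0.06 against the swp82 deletion (limma adjusted p = 0.00107). In the snf2 deletion it fell by 0.25 ± 0.06 against the swp82 deletion (limma adjusted p = 0.00421, and 0.598 with total-count scaling).

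RPB11, part of the assembly heterodimer of Pol II, lies on chromosome XV (315813 to 316175, minus strand). It had 189, 193 and 195 scaled CPM in the wild type, 196, 219.9 and 209.9 in the swp82 deletion, 204, 224 and 215 in the snf2 deletion, and 238, 225 and 238 in the snf5 deletion. The snf5 libraries were above all others. It rose by 0.28 ± 0.06 against the wild type (limma adjusted p = 0.00321, called with any 1 library left out and under total-count scaling) and by 0.17 ± 0.06 against the swp82 deletion (limma adjusted p = 0.0332, lost on leaving out any 1 of 4 libraries).

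RPB3, its partner in that heterodimer, is on chromosome IX (312905 to 313861, plus strand). It had 213, 227 and 225 scaled CPM in the wild type, 204, 221 and 222 in the swp82 deletion, 207, 213 and 203 in the snf2 deletion, and 229, 234 and 241 in the snf5 deletion. The snf5 libraries were again the highest, by a small margin. The difference passed the test only against the snf2 deletion among the 6 comparisons without the replicate block, at 0.18 ± 0.05 (limma adjusted p = 0.0453), and that call was lost on leaving out any 1 of 9 libraries and in edgeR (adjusted p = 0.0538). With total-count scaling RPB3 was called higher in the snf5 deletion against the wild type, by 0.18, and in the snf5 and snf2 deletions against the swp82 deletion, by 0.29 and 0.16.

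Pol III genes lay between the other enzymes. Against the swp82 deletion, 3 of 9 fell in the snf5 deletion (median log2 fold change -0.36) and 4 in the snf2 deletion (median -0.34). All 9 fold changes were below 0 in both, and 8 and 7 were with total-count scaling, which left 1 and 0 calls. With the replicate block 7 of 9 were called lower for snf5 against swp82. All 9 were above 0 in the swp82 deletion relative to the wild type, with a median of 0.26 and no call.

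RPO31, the largest Pol III subunit, is on chromosome XV (539763 to 544145, minus strand). It had 135, 148 and 147 scaled CPM in the wild type, 149, 196 and 194 in the swp82 deletion, 127, 145 and 121 in the snf2 deletion, and 101, 128 and 156 in the snf5 deletion. The lowest swp82 library lay close to the wild-type libraries, and the other 2 well above them. RPO31 fell by 0.45 ± 0.15 in the snf2 deletion against the swp82 deletion (limma adjusted p = 0.0323) and by 0.49 ± 0.15 in the snf5 strain (limma adjusted p = 0.0223), and each call was lost on leaving out any 1 of 4 libraries.

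RET1, the second largest Pol III subunit, has a name outside the rule and is given beside RPO31. It had 118, 130.1 and 132 scaled CPM in the wild type, 129.6, 174 and 178 in the swp82 deletion, 114, 126 and 108 in the snf2 deletion, and 85.8, 123 and 149 in the snf5 deletion. Against the swp82 deletion its fold change was -0.45 ± 0.18 in both, without a call (limma adjusted p = 0.058 in the snf2 and 0.062 in the snf5 deletion); with the replicate block the snf5 comparison was called.

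RPC53, which with RPC37 forms a heterodimer used in initiation and termination, is on chromosome IV (183343 to 184611, plus strand). It had 125, 158 and 153 scaled CPM in the wild type, 160.2, 208 and 196 in the swp82 deletion, 127, 140.4 and 121 in the snf2 deletion, and 116, 144 and 167 in the snf5 deletion. Every swp82 library was above every wild-type and snf2 library. RPC53 fell by 0.53 ± 0.14 in the snf2 deletion against the swp82 deletion (limma adjusted p = 0.0121, lost only without swp82 replicate 2) and by 0.41 ± 0.14 in the snf5 strain (limma adjusted p = 0.0387, lost on leaving out any 1 of 7 libraries). Its partner RPC37 was called in no comparison, nor with the replicate block where that was used.

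RPC11, a small subunit needed for RNA cleavage and termination, is on chromosome IV (547978 to 548310, minus strand). It had 29.8, 31.9 and 38.7 scaled CPM in the wild type, 39.2, 45.7 and 44.0 in the swp82 deletion, 35.2, 37.7 and 33 in the snf2 deletion, and 27.1, 27.6 and 29.8 in the snf5 deletion. Every swp82 library was above every snf5 library, and RPC11 fell by 0.59 ± 0.10 in the snf5 strain against the swp82 deletion (limma adjusted p = 0.000872). No other Pol III call in these comparisons stood both with any 1 library left out and with total-count scaling. In the snf2 deletion RPC11 fell by 0.28 ± 0.10 against the swp82 deletion (limma adjusted p = 0.0409, lost on leaving out any 1 of 6 libraries).

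Of the remaining Pol III genes, RPC34 fell by 0.49 in the snf2 deletion against the swp82 deletion, a call lost on leaving out any 1 of 8 libraries. RPC34 forms the initiation subcomplex with RPC82 and RPC31, and RPC25 and RPC17 form the stalk. RPC82, RPC31, RPC25 and RPC17 were called in no comparison without the replicate block, and with it RPC82, RPC31, RPC25 and RPC34 were called lower for snf5 against swp82, at -0.34, -0.29, -0.36 and -0.47. RPC31 had the highest fold change of the 4 in the swp82 deletion relative to the wild type, at 0.48 ± 0.18 (limma adjusted p = 0.147), with 113, 142 and 139 scaled CPM in the wild type and 148, 198 and 205 in the swp82 deletion.

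RPC40 and RPC19 form the assembly heterodimer shared by Pol I and Pol III. RPC40, on chromosome XVI (745828 to 746835, minus strand), had 290.0, 346 and 336 scaled CPM in the wild type, 343, 468 and 461 in the swp82 deletion, 274, 318 and 274 in the snf2 deletion, and 227, 312 and 392.3 in the snf5 deletion. The snf2 libraries lay below the swp82 libraries, and the snf5 libraries overlapped them. RPC40 fell by 0.54 ± 0.18 in the snf2 deletion against the swp82 deletion (limma adjusted p = 0.0315, lost on leaving out any 1 of 4 libraries). With the replicate block RPC40 was also called lower for snf5 against swp82, at -0.47. RPC19 was not called in any comparison; its fold change in the same comparison was -0.35.

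The 5 genes shared by all 3 enzymes followed the swp82 contrast too. In the snf2 deletion against the swp82 deletion 4 of 5 fell (median -0.36), and in the snf5 deletion 1 fell (median -0.28). With the replicate block 4 fell for snf5 against swp82: RPB5, RPO26, RPB10 and RPC10. With total-count scaling the counts were 1 and 0, and all 5 fold changes stayed below 0 in both.

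RPO26, an assembly subunit on chromosome XVI (911257 to 911800, plus strand, 2 coding exons), had 264, 289 and 307 scaled CPM in the wild type, 312, 382 and 372 in the swp82 deletion, 232, 245 and 239 in the snf2 deletion, and 232, 269 and 345 in the snf5 deletion. The snf2 libraries were below all wild-type and swp82 libraries. RPO26 fell by 0.56 ± 0.13 in the snf2 deletion against the swp82 deletion (limma adjusted p = 0.00486), a call kept with any 1 library left out and with total-count scaling (limma adjusted p = 0.0216). In the snf5 deletion it fell by 0.34 ± 0.13 (limma adjusted p = 0.0496), lost on leaving out any 1 of 10 libraries and in edgeR (adjusted p = 0.0599).

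RPB5, which reaches the incoming DNA in the jaw of the enzymes, is on chromosome II (548362 to 549009, minus strand). It had 191, 211 and 229 scaled CPM in the wild type, 219.6, 285 and 264 in the swp82 deletion, 177, 197 and 183 in the snf2 deletion, and 171, 204 and 244 in the snf5 deletion. The snf2 libraries lay below the swp82 libraries, and the snf5 libraries spanned both. RPB5 fell by 0.46 ± 0.13 in the snf2 deletion against the swp82 deletion (limma adjusted p = 0.0158, lost on leaving out any 1 of 3 libraries).

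RPB8, on chromosome XV (760825 to 761265, minus strand), had 304, 338 and 339 scaled CPM in the wild type, 330.3, 385 and 373 in the swp82 deletion, 274, 301 and 271 in the snf2 deletion, and 269, 322 and 367 in the snf5 deletion. No snf2 library reached a wild-type or swp82 library. It fell by 0.36 ± 0.10 against the swp82 deletion (limma adjusted p = 0.0176, lost on leaving out any 1 of 4 libraries). RPB10 fell by 0.32 in the same comparison, lost on leaving out any 1 of 7 libraries, and RPC10 was called in no comparison without the replicate block.

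RPO41, which transcribes the mitochondrial genome and resembles the polymerases of phages, is on chromosome VI (58782 to 62837, plus strand). It had 84.8, 89.7 and 85.3 scaled CPM in the wild type, 72.6, 85.5 and 80.1 in the swp82 deletion, 80.6, 81.2 and 84.2 in the snf2 deletion, and 85.9, 82.2 and 89.1 in the snf5 deletion. The ranges of the swp82 deletion and of each other strain overlapped, and no comparison gave a call. With total-count scaling RPO41 was 0.28 and 0.27 higher in the snf5 and snf2 deletions than in the swp82 deletion, both called. MTF1, the factor with which RPO41 starts transcription, was called in no comparison; its widest fold change was -0.22 ± 0.09 in the snf5 against the swp82 deletion (limma adjusted p = 0.074).

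Ratios between classes within a library do not depend on the scaling. The geometric mean level per kb of Pol I genes over that of Pol II genes was 0.861 ± 0.0862 in the wild type, 1.04 ± 0.152 in the swp82 deletion, 0.766 ± 0.0604 in the snf2 deletion and 0.72 ± 0.202 in the snf5 deletion. The swp82 libraries (0.879 to 1.18) all lay above the snf2 libraries (0.729 to 0.836) and overlapped the wild type (0.762 to 0.918) and the snf5 deletion (0.515 to 0.918). For Pol III over Pol II the ratios were 0.430 ± 0.0365 in the wild type, 0.497 ± 0.0499 in the swp82, 0.422 ± 0.0242 in the snf2 and 0.402 ± 0.0752 in the snf5 deletion. There the ranges of the swp82 deletion, 0.439 to 0.528, and of every other strain overlapped. Read in pairs of same-numbered libraries, the swp82 library was higher than the wild-type and the snf5 library in 3 of 3 pairs for both ratios. The labels give no pairing, which was inferred from the values of these same libraries. For Pol III over Pol II the pairs were 0.439 and 0.388, 0.528 and 0.448, and 0.523 and 0.454 for swp82 and the wild type, and the snf5 libraries had 0.324, 0.410 and 0.474.

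**Figure D4:**
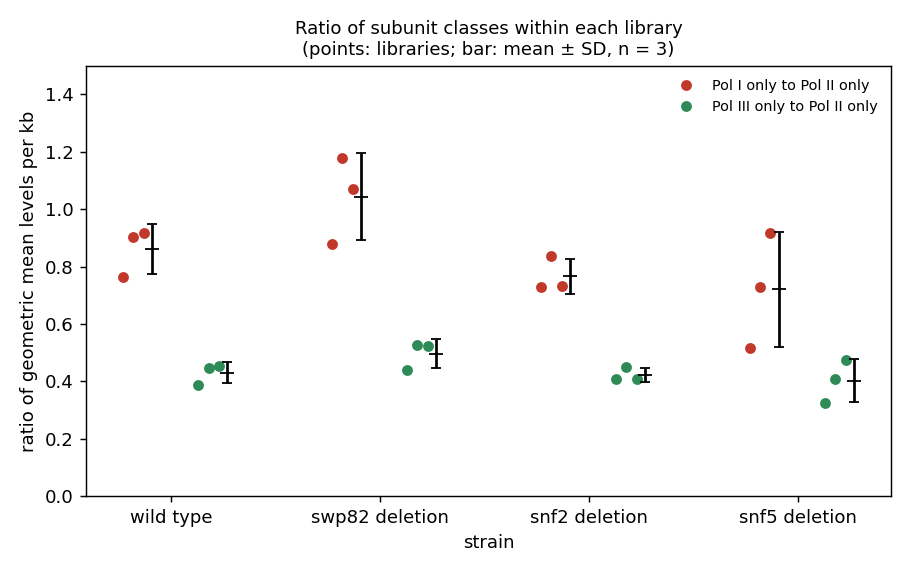
Ratio of the geometric mean level per kb of the Pol I genes, and of the Pol III genes, to that of the Pol II genes in each of the 12 libraries, with mean ± SD beside the points. The Pol I ratio is 1.04 in the swp82 deletion and 0.766 in the snf2 deletion without overlap, and runs from 0.515 to 0.918 in the snf5 deletion.

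Split by promoter motif, the 15 genes with a PAC core before the start had a median log2 fold change of -0.48 in the snf2 deletion against the swp82 deletion, and the 16 without had -0.26. The medians were -0.47 and -0.19 for snf5 against swp82, and 0.31 and 0.14 for swp82 against the wild type. Among the other genes tested, 922 with a PAC core had medians of -0.17, -0.20 and 0.11 in these comparisons, and 4670 without had 0.03, 0.02 and -0.01. The 189 other genes with both PAC and RRPE cores had -0.52, -0.51 and 0.30. The subunit genes with both cores, 11 of them, had -0.53, -0.47 and 0.37, close to those 189 genes. RPC11, RPO26 and RPB7 are among the genes with a call in these comparisons that stood with any 1 library left out. None of them has a PAC core in the window, and RPO26 has 2 RRPE cores there. RPB11, whose call in the snf5 deletion against the wild type also stood so, has neither core. Whether a call stands so depends on how much a gene's libraries vary. That differed by class, with a median coefficient of variation in the snf5 deletion of 35.5% for Pol I and 2.67% for Pol II genes. The motifs of these genes are therefore given as a description, and a link between motif and fold change was not tested.

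**Figure D5:**
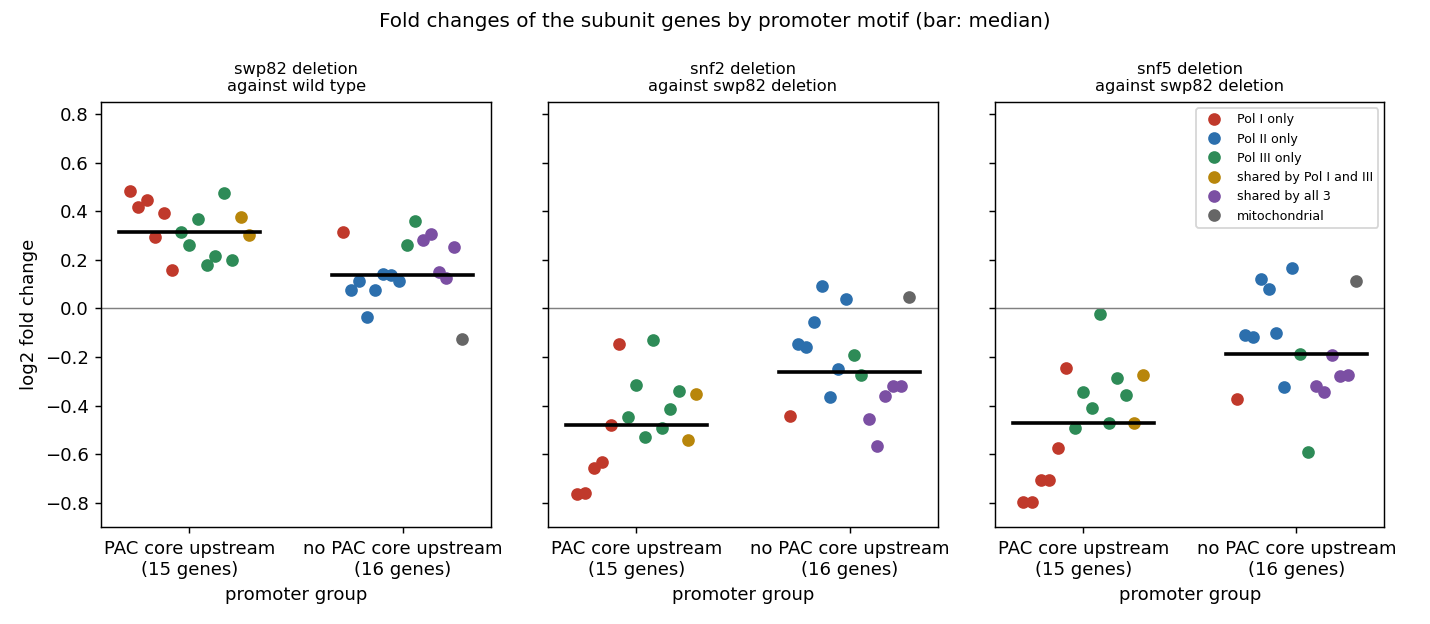
log2 fold change of each of the 31 genes, on the log2(scaled CPM + 1) scale, by whether a PAC core lies within 250 bases before the coding start, in 3 comparisons that share the swp82 libraries. Points are genes coloured by polymerase and bars are medians, which are 0.31 and 0.14, -0.48 and -0.26, and -0.47 and -0.19 from left to right.

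The genes for the PAC and RRPE binding repressors were measured in the same libraries. DOT6 had 311, 347 and 315 scaled CPM in the wild type, 210.1, 235 and 248 in the swp82 deletion, 418, 432 and 470.2 in the snf2 deletion, and 361, 333 and 316 in the snf5 deletion. The swp82 libraries were below and the snf2 libraries above all others. DOT6 fell by 0.49 ± 0.08 in the swp82 deletion (limma adjusted p = 0.008) and rose by 0.44 ± 0.08 in the snf2 deletion (limma adjusted p = 0.0018) against the wild type. Against the swp82 deletion it was higher by 0.93 ± 0.08 in the snf2 and 0.54 ± 0.08 in the snf5 strain (limma adjusted p = 7.3e-06 and 0.00036). STB3 was higher by 0.39 ± 0.07 and 0.24 ± 0.07 in the same comparisons (limma adjusted p = 0.0019 and 0.026). TOD6, the paralog of DOT6, was called in none of the 6 comparisons, although with the replicate block its -1.03 ± 0.27 for snf5 against swp82 was (limma adjusted p = 0.011). Its levels ranged from 57.4 to 217 among the snf5 libraries. Whether these levels bear on the subunit genes was not tested.

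Factors that work with each enzyme were counted in lists, to be read against the shares of all genes. For snf5 and snf2 against the wild type, 14.8% and 13.6% of all genes were higher and 14.5% and 14.1% lower. For snf5 and snf2 against swp82, 20.4% and 21.7% were higher and 21.5% and 21.8% lower. Of 9 Pol I initiation factor genes, 5 fell and 1 rose in the snf5 deletion against the swp82 deletion (7 and 1 with the replicate block, where 27% and 23.6% of all genes did), and 4 fell and 1 rose in the snf2 deletion; with total-count scaling 3 fell and 1 rose, and 1 fell and 2 rose, where 10.3% and 9.91% of all genes fell and 39.2% and 50.5% rose. Against the wild type 3 fell and 1 rose in the snf5 deletion, 1 fell and 1 rose in the snf2 deletion and none was called in the swp82 deletion, where 1.41% of all genes were higher and 2.08% lower. RRN3, which brings Pol I to the promoter, fell by 0.50 ± 0.10 in the snf2 deletion against the swp82 deletion (limma adjusted p = 0.0022), and had 0.37 ± 0.10 in the swp82 deletion relative to the wild type (limma adjusted p = 0.063, and 0.0147 with the replicate block). HMO1, a protein of the ribosomal DNA, fell by 0.41 ± 0.06 in the snf5 deletion against the swp82 deletion and by 0.30 ± 0.06 against the wild type (limma adjusted p = 0.00051 and 0.0042). RRN7, of the core factor, fell by 0.50 ± 0.09 in the snf5 deletion against the wild type, while RRN5, of the upstream activating factor, rose by 0.32 ± 0.06 (limma adjusted p = 0.0023 and 0.0032).

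Of 18 Pol II general initiation factor genes, 3 rose and 1 fell in the snf5 deletion and 3 rose and 3 fell in the snf2 deletion against the wild type, near the 13.6% to 14.8% of all genes. None was called in the swp82 deletion, and SSL2 was with the replicate block. Against the swp82 deletion 1 rose and 4 fell in the snf5 and 4 fell in the snf2 deletion, but with total-count scaling 11 rose and 0 fell in each, where 39.2% and 50.5% of all genes rose. TFB3, a subunit of TFIIH, rose by 0.44 ± 0.06 in the snf5 deletion against the wild type (limma adjusted p = 0.00028), and SUA7, which encodes TFIIB, fell by 0.33 ± 0.07 in the snf5 deletion against the swp82 deletion (limma adjusted p = 0.0047). Of 9 genes of Pol III factors and their repressor MAF1, 4 rose in the snf5 and 1 in the snf2 deletion against the wild type. Against the swp82 deletion 2 rose and 1 fell in the snf5 and 3 rose in the snf2 deletion, and with total-count scaling 6 rose in each. BRF1, a subunit of TFIIIB, rose by 0.34 ± 0.08 in the snf5 deletion against the swp82 deletion (limma adjusted p = 0.0084), in a comparison where RPO31 fell. MAF1 rose by 0.27 ± 0.07 in the snf5 deletion against the wild type (limma adjusted p = 0.014).

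Among 11 Pol II elongation factor genes, 5 rose in the snf5 and 4 in the snf2 deletion against the wild type, where 14.8% and 13.6% of all genes did, and 0 fell. SPT6, a histone chaperone that travels with Pol II, had 212, 199 and 218 scaled CPM in the wild type, 203, 224 and 236 in the swp82 deletion, 393, 428 and 409 in the snf2 deletion, and 420.4, 423 and 450.0 in the snf5 deletion. The snf2 and snf5 libraries did not overlap the other strains, and the rises were 0.96 ± 0.06 and 1.04 ± 0.06 against the wild type (limma adjusted p = 1.3e-06 and 6.8e-07). POB3, a subunit of FACT, rose by 0.21 and 0.23 in the same comparisons, while SPT5 fell by 0.27 and 0.22 in the snf2 and snf5 deletions against the swp82 deletion, neither of which was called with total-count scaling. With the replicate block SPT5 was also called higher for swp82 against the wild type. Of 9 assembly and import factor genes, 1 rose in the snf5 and 2 in the snf2 deletion against the wild type, near those shares of all genes, IWR1, which carries Pol II to the nucleus, in both (0.24 and 0.22). GPN3, of the GTPases that help import, fell by 0.56 ± 0.16 in the snf5 and 0.43 ± 0.16 in the snf2 deletion against the swp82 deletion (limma adjusted p = 0.015 and 0.044), the latter not called with total-count scaling. With the replicate block 2 of these 9 were higher in the swp82 deletion than in the wild type, RBA50 and GPN3, and 3 were lower for snf5 against swp82.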

How the data were processed

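Stranded mRNA libraries were sequenced, 3 per strain and 12 in all, and strains and replicate numbers were read from the titles. Build sacCer3 is named in the submitters' processing notes, together with Bowtie2 2.1.0, TopHat2 2.0.10 and edgeR 3.8.6; which tool counted reads, and with what strand setting, is not given in the sources used here. Values as deposited are a normalised signal made by the authors, CPM divided by a TMM factor: in each library 100% are whole multiples of the value of 1 read (0.0801 to 0.118; largest deviation 5.53e-05 of a read, tolerance 0.05), and recomputed TMM factors differed by at most 1.48e-11. A second table of the authors' group means was used only for membership.

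The planned test for such a signal, limma 3.58.1 with the trend option (R 4.3.3), used log2(value + 1) of all 12 libraries and a term for strain alone. Genes needed 1 or more in 3 or more libraries, which kept 5820 and removed 115. Tests are two-sided. For low genes the pseudocount makes fold changes too small. edgeR 4.0.16 (quasi-likelihood) and DESeq2 1.42.0 were run on recovered reads as alternatives; edgeR called 1715, 1647 and 199 genes for snf5, snf2 and swp82 against the wild type, 728 for snf5 against snf2, and 2435 and 2540 for snf5 and snf2 against swp82. Tested on data simulated for the snf5 deletion against the wild type (5760 genes tested), limma recovered 46% of genes changed 1.3-fold and 90% of those changed 2-fold, with 8 false calls. The simulated libraries were independent, each gene had the same dispersion in every strain, and only a small part of the genes was changed. In the real libraries spread differed between strains and first replicates were often lowest, so these figures do not give the error rate there. Counting error is relatively larger for low genes such as RPC11 and RPC17.

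Same-numbered libraries deviated from their strain means with correlations of 0.255 to 0.599 for swp82 against the wild type and 0.116 to 0.66 in the snf5 against the swp82 deletion, so the replicate numbers were taken to pair these libraries. In the other comparisons at least 1 correlation was under 0.1. The labels give no shared day or batch.

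Motifs and coordinates come from RefSeq assembly R64 (UCSC name sacCer3), to which 5685 identifiers matched and 250 did not. Genes with every library printed were up to 14 called genes with the smallest F test p, and otherwise the leading gene of a class; factor genes are those with the smallest p in each list and comparison. RPB4, RPC31 and RPA14 are given beyond that rule as members. The members and lists were chosen with earlier results of these data known, and support nothing on their own. Other scalings, filters, pseudocounts, tools and left-out libraries were tried.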

Additional observations from a re-analysis of the deposited data

How the results depend on the processing

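The number of subunit genes called moved with several choices. In brackets is the number called among all 5820 genes tested, or 5821 with total-count scaling. In the snf5 deletion against the wild type it was 2 (1704). It became 4 with total-count scaling (1917), 4 with the replicate block (2030) and 1 with the first replicates left out (1292). In the snf2 deletion against the wild type it was 2 (1612). It became 8 with only those 2 groups (2475), 1 with no trend (1581) and 6 with the replicate block (1962). For swp82 against the wild type it was 0 (203). It became 1 with DESeq2 (511), 4 with the replicate block (783) and 5 with the first replicates left out (496). Between the snf5 and snf2 deletions it was 2 (726), and 0 with only those 2 groups (225). It was 1 each with no trend (662), edgeR (728) and the first replicates left out (553). In the snf5 against the swp82 deletion it was 12 (2438), and 2 with only those 2 groups (1314) and 23 with the replicate block (2942). In the snf2 against the swp82 deletion it was 18 (2533), and 6 with total-count scaling (3516). By the F test it was 7 (2928), and 20 with DESeq2 (3280), 23 with the replicate block (3669) and 20 with the first replicates left out (3075). In the window from 250 bases before to 50 after the start the longer motif CGATGAG was in 9 genes and GATGAG in 16, and GATGAG was in 15 in the 250 bases before the start alone. Leaving out 1 library at a time gave 1 to 5, 1 to 3, 0 to 1, 1 to 2, 2 to 22, 3 to 23 and 4 to 21 calls in these 7 tests in the same order. Over all genes tested, the tests up to snf5 against snf2 gave 1220 to 1929, 1155 to 1908, 63 to 625 and 322 to 908. For snf5 against swp82, snf2 against swp82 and the F test they were 1746 to 3033, 1787 to 2952 and 2325 to 3433. Among fold changes called in either setting, those that turned over with total-count scaling were, each in the snf2 against the swp82 deletion, RPO21 at 0.074, RPB2 at 0.060 and RPB3, then called, at 0.16. Uncalled folds turned too: 8 of 31 were above 0 in the snf5 deletion against the wild type, and 19 with total-count scaling. The cause was not tested beyond the scaling itself, which moved the median of all genes by 0.21. The fold changes of the 31 genes were also set against the main fit in every alternative setting, left-out libraries included. Each fold change is thus counted once per setting, over refits that share libraries. Of these repeated cases, apart from the 3 that turned over, 4118 kept their direction and side of the threshold or stayed uncalled. A call was gained in 123 cases and lost in 220. The replicate block gave 23 calls (3014) in the snf2 against the swp82 deletion and 3 (1045) between snf5 and snf2. Numbers in those comparisons were not taken to pair libraries.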
